A study of Mus musculus with 4 samples.

Results

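The 10 immediate early genes Fos, Fosb, Fosl2, Jun, Junb, Egr1, Arc, Nr4a1, Npas4 and Ier2 were followed through the single-nucleus RNA profiles of the mouse hypothalamus, out of 32285 genes in the count matrices. They were taken as a list by name, under a rule that uses no measured value, although earlier results of these data were known. For each gene the unique molecular identifiers (UMIs, counts of single captured transcripts) were summed per library over the nuclei of every annotated main cluster and sub-cluster, and are given as CPM, the share of that sum scaled to 1000000 UMIs. The 2 genotypes were wild-type mice (WT) and TRα1+m mice, which are heterozygous for the R384C mutation of the thyroid hormone receptor TRα1. Both were adult male mice on the C57/BL6NCr background, and 6 mice of each were used in 2 independent experimental repeats. Each of the 4 libraries held nuclei pooled from 3 mice of a genotype, so there was 1 library per genotype in each repeat, n = 2 per genotype, and p-values measure the spread between pools. A point mutation leaves the transcript of the receptor gene in place, so its level does not check the labels. The hypothalamus was dissected and frozen after CO2 inhalation and cervical dislocation, and no group was stimulated. The part of the time between death and freezing in the levels was not tested.

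Immediate early genes are transcribed within minutes of a stimulus, without the synthesis of new protein, when calcium and growth factor signals reach transcription factors already bound at their promoters, such as CREB and the serum response factor. Most of the 10 encode transcription factors themselves. In the brain their transcripts are read as a trace of recent neuronal activity, and Fos is the usual marker of activated hypothalamic neurons. Many of them also respond to stress and to the handling of tissue in cells of any type.

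The promoters of Fos and Nr4a1 are shown because Nr4a1 was the member called between the repeats and Fos is the usual marker of the response, and a short stretch of Npas4 is shown for its pair of nearby half-sites. The sequences are from RefSeq on GRCm38.p6, 5′ to 3′ on the strand of the gene, and 7 of the 10 genes matched the table. The first 2 are the 250 bases before the transcription start. Capitals mark the CRE half-site, the core of the sequence bound by CREB, searched as TGACG on both strands (so also as CGTCA). Fos is at chr12:85473640-85473889 on the plus strand, Nr4a1 at chr15:101266596-101266845 on the plus strand, before the start of a shorter transcript and within an intron of a longer one, and the Npas4 stretch of 25 bases at chr19:4990131-4990155 on the minus strand, which GENCODE M21 places in the 5′ UTR of a longer transcript.
Fos: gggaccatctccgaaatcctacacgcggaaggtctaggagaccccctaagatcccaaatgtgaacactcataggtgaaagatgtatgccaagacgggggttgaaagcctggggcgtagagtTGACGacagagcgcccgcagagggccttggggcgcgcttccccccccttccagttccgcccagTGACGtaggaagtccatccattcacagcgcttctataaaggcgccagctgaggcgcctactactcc
Nr4a1: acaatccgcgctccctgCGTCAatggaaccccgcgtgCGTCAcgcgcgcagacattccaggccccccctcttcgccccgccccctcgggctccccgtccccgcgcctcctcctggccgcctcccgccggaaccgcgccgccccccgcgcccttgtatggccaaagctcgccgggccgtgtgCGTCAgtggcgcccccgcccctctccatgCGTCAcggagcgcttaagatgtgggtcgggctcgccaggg
Npas4: ttcgaCGTCAcgggaTGACGtcgga

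The half-sites of Fos began 129 and 66 bases before the start, and those of Nr4a1 began 233, 213, 69 and 40 bases before it. Those of Npas4 began 179 and 169 bases before the start. Fosb and Junb each held 1, at 60 and 106 bases, and the same 250 bases of Fosl2 and Jun held no such letters. The Fosl2 window, chr5:32136222-32136471 on the plus strand, lies within the gene in GENCODE M21, which starts it at 32135801. The bases before that start were not searched. Of 32851 windows of this length in the table, 17.8% held at least 1 half-site, 3.90% at least 2 and 0.137% at least 4. The full site TGACGTCA, which contains 2 overlapping half-sites, was in 1.55% of the windows, the AP-1 site TGANTCA in 6.75% and the CArG box of the serum response element in 1.47%. None of these 3 was in the windows of the 7 genes, which says only that the letters are not in these 250 bases. A match is a description and not a measured binding site. Egr1, Arc and Ier2 were not analysed here for sequence.

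The 4 libraries held 11976 to 16435 annotated nuclei and 47260127 to 59112785 UMIs, with a median of 2904 to 4018 UMIs per nucleus, and 44 to 64 nuclei barcodes were shared by any 2 of them. The 5 main clusters tested were Neurons_1 (35756 nuclei), astrocytes (9535), oligodendrocytes (6135), oligodendrocyte precursor cells (OPCs, 2110) and microglia and macrophages (1779). Each cluster held the highest summed level of the markers of its own name. The 6 neuronal markers summed to 3368 to 3618 CPM in Neurons_1 and the 5 oligodendrocyte markers to 9087 to 22375 CPM in oligodendrocytes. The neuronal markers also stood at 567 to 1143 CPM in the 4 glial clusters, 20.3% to 28.8% of their mean in Neurons_1. Each glial cluster's own markers were higher in repeat 2, where the oligodendrocyte markers in oligodendrocytes reached 18642 and 22375 CPM against 10054 and 9087 CPM in repeat 1. A cluster of 864 nuclei named Neurons_2 came almost whole from 1 library, TRα1+m repeat 2, which gave 852 of them, and it was kept apart from Neurons_1. In sums over a pool, fewer transcribing nuclei and fewer transcripts per nucleus cannot be told apart.

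Immediate early genes were sparse in every cluster, and most of them had their highest mean share of UMIs outside neurons. The 10 together summed to 41.3 ± 7.54 CPM (mean and SD of 4 libraries) in Neurons_1, 54.4 ± 7.64 CPM in astrocytes, 56.4 ± 11.1 CPM in OPCs, 67.6 ± 3.92 CPM in oligodendrocytes and 86.6 ± 8.39 CPM in microglia and macrophages. Of the 10, 9 had their highest mean CPM in a glial cluster and 1, Npas4, in Neurons_1. Most of the clusters compared were glial, and the share of all genes highest in a glial cluster was not computed. The count of 9 therefore cannot be called particular to the members. The order of clusters by CPM is not one of transcripts per nucleus, since the median nucleus held 4380 UMIs in Neurons_1 and 1605 in oligodendrocytes. By share of nuclei with a transcript at whole depth, Fos, Fosb, Fosl2, Egr1 and Npas4 were highest in Neurons_1. Jun, Junb, Arc, Nr4a1 and Ier2 were highest in a glial cluster. Fos was detected in 1.81% of Neurons_1 nuclei and in 0.806% (OPCs) to 1.29% (microglia and macrophages) of glial nuclei. These shares rise with depth. With every nucleus thinned at random to 900 UMIs, Npas4 alone was highest in Neurons_1. Fos was then in 0.372% of Neurons_1 nuclei and in 0.284% (OPCs) to 0.787% (microglia and macrophages) of glial nuclei. Because the clusters were made from the same nuclei, these levels are described and not tested. Reads from introns were counted and the genes run from 1522 bases (Ier2) to 22042 bases (Fosl2) in GENCODE M21, so levels are compared between clusters and libraries and not between genes. Glial sums were also small, from 616935 to 858073 UMIs per library in microglia and macrophages, so that 1 UMI there was up to 1.62 CPM. In what follows the 4 values of a gene are given in the order WT repeat 1, WT repeat 2, TRα1+m repeat 1 and TRα1+m repeat 2.

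**Figure D1:**
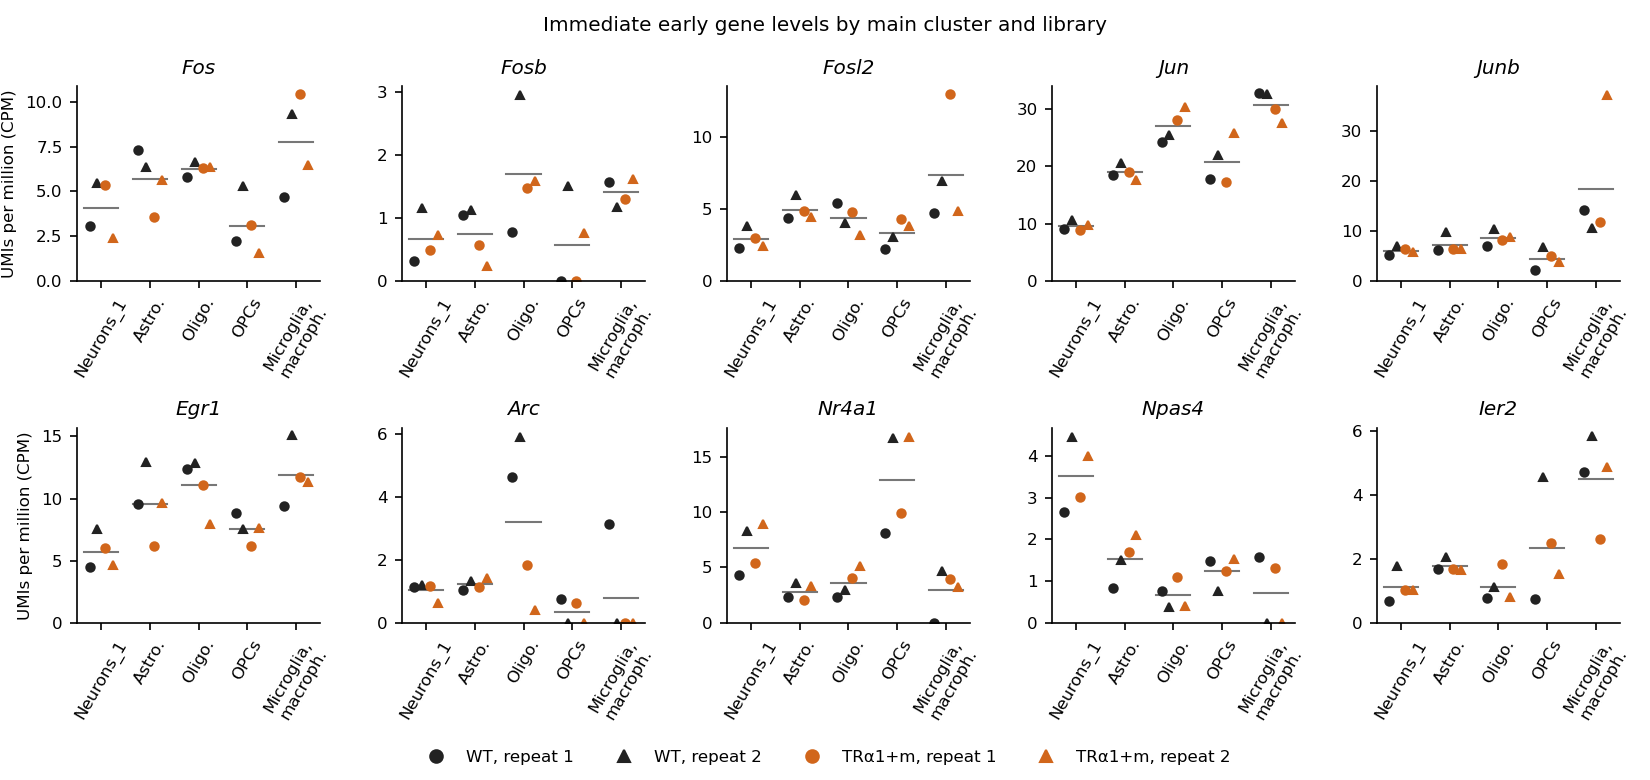
Level of each of the 10 genes in CPM (vertical axes, which differ between panels) in the 5 main clusters. Each point is a library, coloured by genotype and shaped by repeat, and grey lines are the means of 4 libraries. Jun in all glial points lies above its points in Neurons_1, and Npas4 in Neurons_1 lies above its points in the other clusters.

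The Fos and Jun proteins pair to form the transcription factor AP-1. Jun, the partner that can also pair with itself, showed the clearest order. It stood at 9.01, 10.7, 8.84 and 9.69 CPM in Neurons_1 and at 32.9, 32.6, 30.01 and 27.6 CPM in microglia and macrophages. In oligodendrocytes it stood at 24.3, 25.4, 28.1 and 30.5 CPM. The means in OPCs and astrocytes were 20.7 ± 4.02 and 19.0 ± 1.26 CPM. No glial value overlapped the neuronal ones, which averaged 9.56 ± 0.840 CPM, while each glial cluster overlapped its neighbour in the order.

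Fos, the best known partner of Jun, stood at 3.07, 5.48, 5.35 and 2.41 CPM in Neurons_1. The high and low values fell across both genotypes and both repeats. Its means were 7.74 ± 2.62 CPM in microglia and macrophages, 6.26 ± 0.351 CPM in oligodendrocytes, 5.71 ± 1.58 CPM in astrocytes and 3.03 ± 1.64 CPM in OPCs, and every neighbour in this order overlapped. Oligodendrocytes held the evenest Fos values, at 5.79, 6.63, 6.28 and 6.34 CPM from 15 to 18 UMIs per library.

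Junb, a Jun relative that often opposes Jun, stood at 5.06, 6.98, 6.36 and 5.81 CPM in Neurons_1. In microglia and macrophages it stood at 14.1, 10.5, 11.7 and 37.3 CPM, and the last library, with 23 UMIs against 9 in each of the others, stood apart. In that library the 6 microglial markers of the cluster summed to 9157 CPM, against 3475, 7424 and 3020 CPM in the others, and their part in the Junb value was not tested. Fosl2, a Fos relative made later and for longer, had means of 2.89 ± 0.697 CPM in Neurons_1, where it was lowest, and 7.40 ± 3.91 CPM in microglia and macrophages, and all neighbours overlapped. Fosb, whose products build up with repeated activity, was the sparsest AP-1 gene, with 117 UMIs in Neurons_1 (0.307, 1.15, 0.492 and 0.730 CPM) and a mean of 1.70 ± 0.910 CPM in oligodendrocytes.

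Egr1, a zinc finger transcription factor, stood at 4.49, 7.57, 5.998 and 4.69 CPM in Neurons_1, its lowest cluster by mean. It averaged 11.9 ± 2.39 CPM in microglia and macrophages, 11.1 ± 2.23 CPM in oligodendrocytes and 9.58 ± 2.75 CPM in astrocytes, and each overlapped the next. Ier2, a small nuclear protein of the early response, averaged 4.50 ± 1.35 CPM in microglia and macrophages and 1.12 ± 0.456 CPM in Neurons_1.

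Nr4a1, an orphan nuclear receptor, was highest in OPCs, at 8.13, 16.6, 9.90 and 16.7 CPM from 11, 22, 16 and 22 UMIs. In Neurons_1 it stood at 4.35, 8.27, 5.37 and 8.87 CPM. In both clusters the 2 libraries of repeat 2 lay above the 2 of repeat 1, and the ranges of the 2 clusters overlapped. The mean was 3.62 ± 1.25 CPM in oligodendrocytes, 2.95 ± 2.05 CPM in microglia and macrophages and 2.80 ± 0.735 CPM in astrocytes.

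Npas4, a transcription factor made in neurons when calcium enters them, stood at 2.65, 4.45, 3.02 and 4.02 CPM in Neurons_1, above every value of the 4 glial clusters. Tanycytes, a sub-cluster of the astrocytes, stood at 3.22, 2.95, 3.01 and 1.69 CPM from 3, 3, 3 and 1 UMIs, within the neuronal range in 3 libraries. Its means in the 4 glial clusters were 43.4% of that level in astrocytes, 35.3% in OPCs, 20.3% in microglia and macrophages and 18.7% in oligodendrocytes. These shares stand beside the 20.3% to 28.8% at which neuronal markers appeared in glia. They rest on 30 UMIs in astrocytes, 7 in OPCs, 2 in microglia and macrophages and 7 in oligodendrocytes, beside 607 in Neurons_1. By contrast Jun in glia was 198% to 322% of its neuronal mean and Fos 74.3% to 190%.

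Arc encodes a synaptic protein that forms capsid-like shells and is the only member here that acts at synapses. The gene lies at chr15:74669083-74672570 on the minus strand. It stood at 1.14, 1.19, 1.16 and 0.618 CPM in Neurons_1. In oligodendrocytes it stood at 4.63, 5.90, 1.85 and 0.396 CPM, from 12, 16, 5 and 1 UMIs, and had its highest mean there, 3.19 ± 2.52 CPM. Of these 4 values, 3 lay above all values of Neurons_1, and that of TRα1+m repeat 2 lay below them.

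Whether the receptor mutation went with other levels of these genes was asked by comparing TRα1+m with WT in each cluster, by edgeR's quasi-likelihood test adjusted over all genes tested there (Benjamini-Hochberg, threshold 0.05). No immediate early gene was called in any cluster. All 10 passed the filter on low counts in Neurons_1, where 0 were called and 0 had an unadjusted p under 0.05. Of all 19926 genes tested there, 0 were called, a background of 0%, and 193 had an unadjusted p under 0.05. In astrocytes 6 were tested and 0 called (background 0% of 14797 genes), in oligodendrocytes 7 tested and 0 called (background 0.103% of 12630), in OPCs 3 tested and 0 called (background 0% of 11248), and in microglia and macrophages 1, Jun, tested and 0 called (background 0% of 10451). DESeq2 also called 0 of the members in each cluster. It gave no adjusted p for 2 of the 7 in oligodendrocytes, Arc and Nr4a1, which it could not call. When edgeR was blocked on the repeat, it called 0 members in each cluster, and over all genes 550 in oligodendrocytes, 190 in astrocytes, 64 in OPCs, 35 in microglia and macrophages and 2 in Neurons_1. Because 2 against 2 libraries allow no exact permutation p below 0.333, none was used for single genes.

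In Neurons_1 the log2 fold changes of the 10 genes ran from -0.43 (Arc) to 0.11 (Nr4a1), with a median of -0.21 against 0.01 over all genes. Of the 10, 9 were below 0. Standard errors were large, from 0.19 (Jun) to 0.67 (Fosb). Fos differed by -0.19 (SE 0.50) and Egr1 by -0.23 (SE 0.33), both with an adjusted p of 1.00 in edgeR. For all 10 genes the ranges of the genotypes overlapped, so differences of this size lay within the spread between pools. That spread includes the difference between repeats. Within each repeat Nr4a1 was higher in TRα1+m, at 5.37 against 4.35 CPM and 8.87 against 8.27 CPM. Jun was lower in both, at 8.84 against 9.01 CPM and 9.69 against 10.7 CPM. The remaining members changed direction between the repeats. The 2 Fos values within each genotype lay farther apart than the genotype means, which were 4.28 CPM in WT and 3.88 CPM in TRα1+m.

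**Figure D2:**
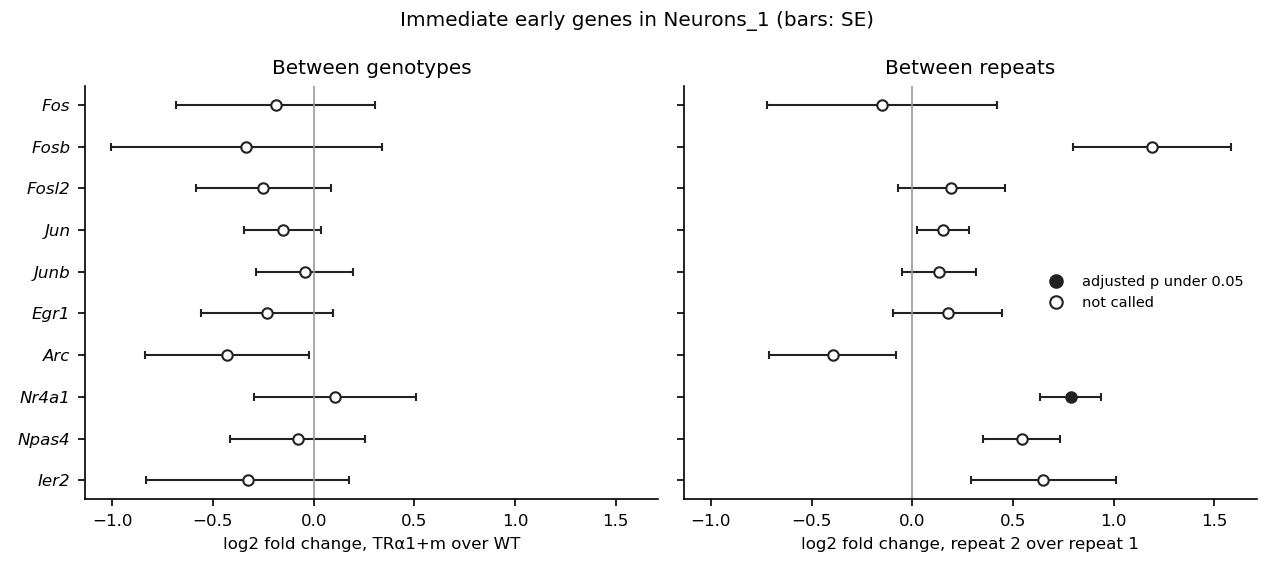
Log2 fold changes of the 10 genes in Neurons_1 with their standard errors (bars), between genotypes on the left and between repeats on the right. Points lie between -0.43 and 0.11 between genotypes, where none was called, and the filled point between repeats is Nr4a1 at 0.79.

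Arc in oligodendrocytes was the single member with an unadjusted p under 0.05. Its log2 fold change was -2.10 (SE 0.73), and edgeR gave an adjusted p of 0.784, so it was not called. Blocking on the repeat gave an adjusted p of 0.0553, and over the alternatives that gave one it ran from 0.0553 to 1.00. The 2 WT libraries lay above the 2 TRα1+m libraries, at 12 and 16 UMIs against 5 and 1. Without TRα1+m repeat 1 the log2 fold change was -3.51 and without TRα1+m repeat 2 it was -1.44. Neuronal markers in oligodendrocytes stood at 907, 943, 885 and 645 CPM, lowest in the library with 1 UMI of Arc, and their part in the Arc values was not tested. Nr4a1 in oligodendrocytes was 2.31 and 2.95 CPM in WT and 4.07 and 5.15 CPM in TRα1+m, a log2 fold change of 0.86 (SE 0.53) with an adjusted p of 0.999 in edgeR.

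The genotype difference of each glial cluster was also set against that of Neurons_1, with all 10 members tested for each. On the glial counts alone the filter had passed fewer: 1 for microglia and macrophages, 3 for OPCs, 6 for astrocytes and 7 for oligodendrocytes. Pairs that had not passed there had little chance of a call. Arc in microglia and macrophages, for example, had 2 UMIs in all. Of 40 pairs of member and glial cluster, 0 were called and 1 had an unadjusted p under 0.05, beside a background of 0.0694% called among 76335 pairs of gene and cluster. That pair was Arc in oligodendrocytes, whose log2 fold change differed from the neuronal one by -1.77 (SE 0.75), with an adjusted p of 1.00 in edgeR. In the 12 neuronal sub-clusters tested, 43 pairs of member and sub-cluster passed the filter and 0 were called by edgeR or DESeq2, with 0 at an unadjusted p under 0.05 (background 0.00367% of 136098 pairs). In astrocytes without tanycytes and in tanycytes, 8 pairs passed and 0 were called by either, with 0 at an unadjusted p under 0.05 (background 0% of 25289 pairs).

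Repeat 2 was compared with repeat 1 with the genotype as a term in the fit. In Neurons_1 the log2 fold changes ran from -0.40 (Arc) to 1.19 (Fosb), and 8 of the 10 were above 0. Nr4a1 was called in Neurons_1. Its values were 4.35 CPM in WT and 5.37 CPM in TRα1+m in repeat 1, and 8.27 and 8.87 CPM in repeat 2. The repeats did not overlap, and the log2 fold change was 0.79 (SE 0.15), with adjusted p-values of 0.00711 (edgeR) and 0.0229 (DESeq2). The call was lost in 1 of 14 settings, when WT repeat 1 was left out and the adjusted p became 0.0974. It held with the Neurons_2 nuclei added and without nuclei carrying vascular genes.

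This 1 of 10 members stood beside a wide background. Of all 19926 genes tested in Neurons_1, 25.2% were called between repeats, and 13.2% were called as higher in repeat 2. The share of members called was not above that of all genes. Their median log2 fold change was 0.18 against 0.01 over all genes. Fosb, at 0.307 and 0.492 CPM in repeat 1 and 1.15 and 0.730 CPM in repeat 2, had a log2 fold change of 1.19 (SE 0.39) and an adjusted p of 0.0578 in edgeR. Npas4, at 2.65 and 3.02 CPM against 4.45 and 4.02 CPM, had 0.54 (SE 0.19) and an adjusted p of 0.0695 in edgeR. Neither was called, although each passed the threshold under some alternatives, and for both the values of repeat 2 lay above those of repeat 1. Fos did not share this order, with 3.07 and 5.35 CPM in repeat 1, 5.48 and 2.41 CPM in repeat 2 and a log2 fold change of -0.15 (SE 0.57).

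In glia 0 members were called between repeats. They were 0 of 6 in astrocytes (background 20.6%), 0 of 7 in oligodendrocytes (12.4%), 0 of 3 in OPCs (11.4%) and 0 of 1 in microglia and macrophages (6.27%), all by edgeR. The 1 with an unadjusted p under 0.05 was Nr4a1 in OPCs, with a log2 fold change of 0.80 (SE 0.38) close to its neuronal value and an adjusted p of 0.166 in edgeR. OPC markers in OPCs moved with it, at 1750, 2297, 1493 and 2275 CPM, and their part in it was not tested. DESeq2 called 0 members between repeats in these 4 clusters. It gave no adjusted p for 6 of the 7 in oligodendrocytes, the 3 in OPCs and the 1 in microglia and macrophages. It could therefore not call these. Without WT repeat 2, which left TRα1+m repeat 2 (37.3 CPM of Junb) as the single library of that repeat, Junb passed the filter in microglia and macrophages and was called.

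Nr4a1 kept this direction across neuron types. Of the 11 neuronal sub-clusters where it had at least 10 UMIs, both libraries of repeat 2 lay above both of repeat 1 in 10. For Npas4 this was so in 6 of 9, for Jun in 5 of 11, for Junb in 4 of 10 and for Fos in 0 of 9. For Egr1 it was so in 3 of 9, for Fosb in 2 of 4, for Fosl2 in 1 of 9, for Ier2 in 1 of 5 and for Arc in 0 of 4. Among all pairs of gene and sub-cluster with as many UMIs, 28.2% had this order. The sub-clusters share their 4 libraries and are no replicates of the repeat. They are parts of the same nuclei in which Nr4a1 was called, so its count here adds no support to that call. The cell make-up of the sub-clusters differed between repeats as well. Pmch, which encodes melanin-concentrating hormone (MCH), stood at 1490 and 2367 CPM in repeat 1 and 18964 and 15145 CPM in repeat 2 in the sub-cluster named for it. Its part in the Nr4a1 difference was not tested.

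**Figure D3:**
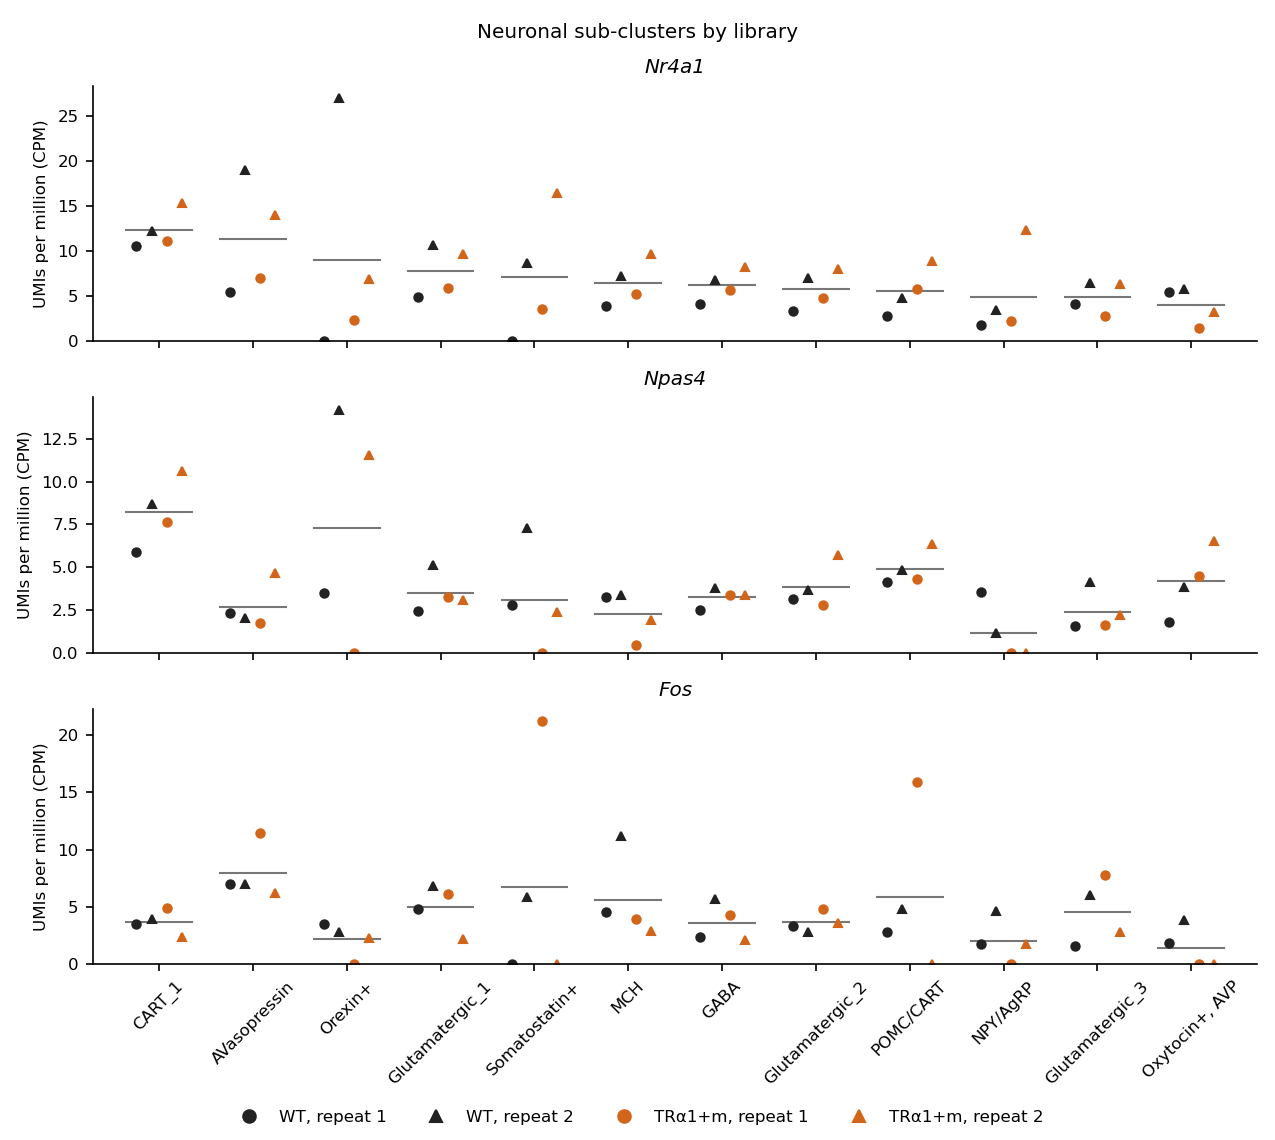
Nr4a1, Npas4 and Fos in the 12 tested neuronal sub-clusters (horizontal axis, ordered by mean Nr4a1) in CPM. Points are libraries, coloured by genotype and shaped by repeat, and grey lines are means of 4 libraries. For Nr4a1 the triangles of repeat 2 lie mostly above the circles of repeat 1, and for Fos they do not.

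Among neuronal sub-clusters Nr4a1 and Npas4 were both highest by mean in CART Neurons_1, a sub-cluster of 1629 nuclei named for the cocaine- and amphetamine-regulated transcript. There Nr4a1 stood at 10.6, 12.3, 11.1 and 15.4 CPM and Npas4 at 5.90, 8.72, 7.63 and 10.6 CPM. Both overlapped the next sub-cluster in order, the vasopressin one for Nr4a1 (5.44 to 19.0 CPM) and the Orexin+ one for Npas4 (0 to 14.2 CPM). All 4 libraries of CART Neurons_1 held both genes above their mean in Neurons_1. Fos in the same nuclei averaged 3.68 CPM, under its Neurons_1 mean of 4.08 CPM.

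The sub-cluster named for vasopressin, the hormone that retains water, held the highest neuronal Fos mean. Its values were 6.998, 6.999, 11.4 and 6.22 CPM from 4 to 13 UMIs per library. They overlapped those of the next, the Somatostatin+ sub-cluster, at 0 to 21.2 CPM. The 3 tanycyte markers summed to 1653, 1394, 1990 and 2180 CPM in the vasopressin sub-cluster, against 126 to 737 CPM in the other neuronal sub-clusters. Their part in the Fos level was not tested. Fosl2 was highest in the sub-cluster named for oxytocin and AVP, at 12.7, 15.4, 4.50 and 22.8 CPM, from only 25 UMIs in 366 nuclei. Single libraries also stood out. Nr4a1 in the Orexin+ sub-cluster was 27.0 CPM (19 UMIs) in WT repeat 2 and 0 to 6.94 CPM in the others, and Fos in the Somatostatin+ sub-cluster was 21.2 CPM (6 UMIs) in TRα1+m repeat 1 and 0 to 5.83 CPM in the others. Such values rest on few transcripts.

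The 2085 nuclei of the sub-cluster named MCH Neurons had the highest mean of the summed level of the 10 genes among the neuronal sub-clusters, 86.1 ± 30.9 CPM. Its libraries ran from 54.4 to 125 CPM and overlapped those of the vasopressin sub-cluster, at 42.0 to 76.3 CPM. Jun stood at 16.8, 32.9, 22.7 and 31.8 CPM, Egr1 at 7.12, 22.9, 10.0 and 11.6 CPM, and Ier2 at 3.88, 19.5, 11.3 and 8.68 CPM. Ier2 gave 76 of its 197 UMIs in Neurons_1, 38.6%, from these nuclei, which were 5.83% of the cluster.

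Markers of blood vessels were also high in these nuclei, and their part in these levels was not tested. The markers were highest in TRα1+m repeat 2, while Jun, Egr1 and Ier2 were highest in WT repeat 2. All were lowest in WT repeat 1. The 8 endothelial and mural markers summed to 673, 2003, 1635 and 2973 CPM in the MCH-labelled nuclei, and 21.3% of them held transcripts of at least 2 of these genes, against 1.99% of all Neurons_1 nuclei. Over Neurons_1 the nuclei with at least 2 vascular genes held 19.3 CPM of Ier2, and the remaining nuclei 0.780 CPM. The gap was narrower for Jun (30.2 against 9.17 CPM), Fosl2 (8.78 against 2.82 CPM), Junb (17.0 against 5.88 CPM) and Egr1 (14.1 against 5.63 CPM). Fos differed less (5.56 against 4.19 CPM), as did Nr4a1 (9.95 against 6.60 CPM), and Npas4 stood at 3.51 against 3.54 CPM. Arc had 1 UMI in the nuclei with vascular genes. Ier2, Jun, Junb and Fosl2 were higher in the nuclei with vascular genes in all 4 libraries, Ier2 at 9.74, 23.6, 22.9 and 11.7 CPM against 0.597, 1.18, 0.504 and 0.802 CPM. Egr1 was higher in 3, with 2.44 against 4.51 CPM in WT repeat 1, and Fos in 3, with 1.46 against 2.43 CPM in TRα1+m repeat 2. The Nr4a1 gap came mostly from TRα1+m repeat 2, at 22.0 against 8.62 CPM, while the other 3 libraries stood at 4.87, 8.65 and 5.71 against 4.35, 8.26 and 5.36 CPM. How many of all genes were higher in the nuclei with vascular genes was not computed, so these gaps cannot be called particular to the members. Of the 76 Ier2 UMIs of the MCH-labelled nuclei, 64 were in nuclei with at least 2 vascular genes. The remaining MCH-labelled nuclei held 16.9 CPM of Jun, 10.4 CPM of Egr1 and 2.45 CPM of Ier2. These lay above the remaining nuclei of Neurons_1, while Nr4a1 (4.90 CPM) and Npas4 (1.84 CPM) lay below. The astrocyte markers summed to 798 to 1364 CPM in the MCH-labelled nuclei, against 94.8 to 468 CPM in the other neuronal sub-clusters. Their part in the levels was not tested.

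**Figure D4:**
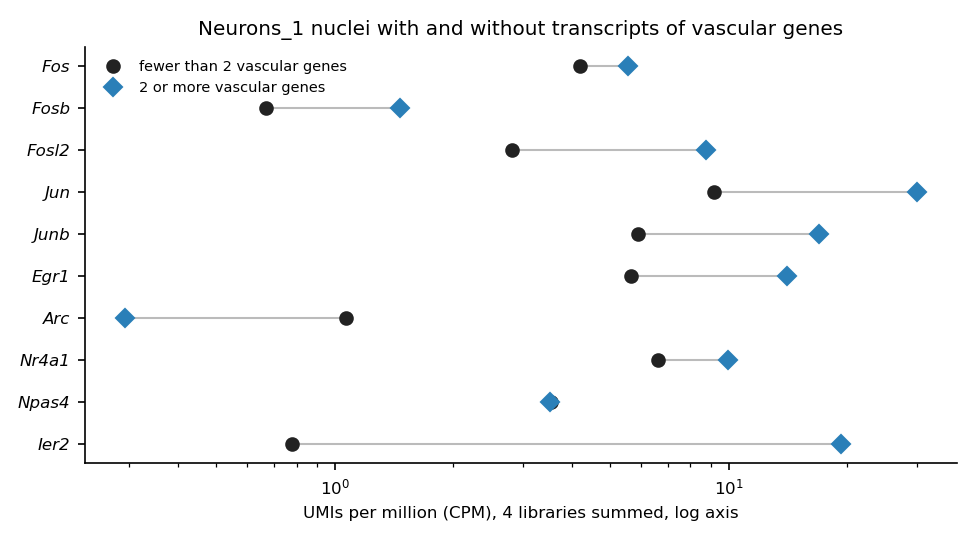
Levels of the 10 genes in Neurons_1 nuclei with at least 2 of the 8 vascular genes (diamonds) and in the rest (circles), as CPM on a log axis, with the 4 libraries summed. Ier2 shows the widest gap, 19.3 against 0.780 CPM, and the symbols of Npas4 nearly coincide.

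Few nuclei held transcripts of several members, each of which was itself seldom detected. Thinned to 900 UMIs, single members were in 0.0699% (Fosb) to 1.02% (Jun) of Neurons_1 nuclei. In Neurons_1, 84.0% of 35756 nuclei carried no transcript of any of the 10 genes, and 139 nuclei carried at least 3 of them, 16, 62, 39 and 22 in the 4 libraries. With every nucleus thinned to 900 UMIs the nuclei without a member were 96.1% and those with at least 3 were 4, or 0.0112%. These 4 nuclei are too few to compare the genotypes. Among the 6135 oligodendrocytes 0 nuclei had detected transcripts of 3, at a median of 1605 UMIs against 4380 in Neurons_1. That count allows a share of up to 0.0489% of nuclei with such transcripts at this depth, for counting error only, and does not limit the share of nuclei that express 3.

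The fullest nuclei were few. At whole depth 16 nuclei held 5 or more members, at most 7, and 14 of them were in Neurons_1 and 2 in Neurons_2. They came 1, 9, 2 and 4 from the 4 libraries and had a median of 7253 UMIs. Junb was in 14 of the 16, Nr4a1 in 12 and Fos in 9. A single nucleus held 5 or more Fos UMIs. In thinned Neurons_1 nuclei, 11.6% of the 199 with Junb carried another member, against 3.35% of those without. By library the Junb shares were 13.7, 19.7, 1.79 and 9.68% against 2.83, 4.21, 3.20 and 3.22%, so that TRα1+m repeat 1 went the other way. For Nr4a1 the shares were 3.24% of 216 and 3.31%. No test was made on these shares.

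The Neurons_2 nuclei of TRα1+m repeat 2 held more of most members than Neurons_1 of the same library. Nr4a1 was 20.6 CPM (58 UMIs, exact 95% Poisson interval 15.7 to 26.6) against 8.87 CPM (7.92 to 9.91), and Npas4 was 11.4 CPM (7.78 to 16.1) against 4.02 CPM (3.38 to 4.73). Arc was 4.27 CPM (2.20 to 7.45) against 0.618 CPM (0.387 to 0.935). The intervals cover counting error only and come from a single library, so no comparison of conditions is possible. For Fosb, Junb and Ier2 they overlapped. The share of all genes whose intervals lay apart was not computed, so the members cannot be set against other genes here.

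Genes with a mean of at least 10 CPM over the sums were ranked by likeness to Fos, and the first of them were not members. Over the main clusters Jun, at 21.4 CPM, passed this limit. Egr1 (9.16 CPM), Junb (8.92 CPM) and the sparser members fell below it and could not be ranked, so the ranking does not set members against other genes. Over the 20 sums of library and main cluster, Raly (r = 0.835), Rbbp7 (0.816), Ncoa4 (0.805), Gid8 (0.804) and Hebp1 (0.801) had the highest Pearson r of log2(CPM + 1) among 11053 genes. The nearest member was Egr1 (0.680), followed by Fosl2 (0.667) and Junb (0.631), while Nr4a1 (-0.418) and Npas4 (-0.471) went against Fos. Over the 48 sums of library and neuronal sub-cluster the highest was Dnlz, at 0.627. The sums share 4 libraries, their depth and their nuclei's cell type, so the values are descriptions.

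Other genes of the same response were read from lists chosen by name, with earlier results of these data known. Of their 76 genes, those tested between genotypes were 73 for Neurons_1, 63 for astrocytes, 55 for oligodendrocytes, 46 for OPCs and 43 for microglia and macrophages. In each cluster 0 were called by edgeR without the block, beside the backgrounds of 0% and, in oligodendrocytes, 0.103%. With the block 0 were also called, beside the higher counts over all genes given for it above. DESeq2 called 0 as well, beside 1, 1, 74, 1 and 0 of all genes in the clusters in this order. In the same order 0, 1, 2, 0 and 0 had an unadjusted p under 0.05 in edgeR without the block. Among the abundant ones in Neurons_1 values lay near 0, with log2 fold changes of -0.06 (SE 0.31) for Jund, 0.14 (SE 0.21) for the zinc finger factor Klf6, -0.16 (SE 0.12) for the synaptic scaffold Homer1, -0.07 (SE 0.36) for Scg2 and -0.22 (SE 0.18) for the chaperone Hspa8. Between repeats in Neurons_1, 1 of 15 tested other rapid transcription factors was higher in repeat 2, Jund, another Jun protein, at 0.60 (SE 0.10) on the log2 scale. Of 19 other rapid response genes 4 were higher and 0 lower, beside a background of 25.2% called and 13.2% higher over all genes. In neither list was the share called above the 25.2%. The share higher was above the 13.2% in the second list, 4 of 19, and not in the first, and no test was made on it. Among the 4 was Ier3, at 4.45 and 5.82 CPM in repeat 1 and 12.2 and 11.9 CPM in repeat 2. Another was Plk2, a kinase that scales down synapses, at 0.73 (SE 0.12). Jund was also higher in repeat 2 in astrocytes (0.54, SE 0.12) and oligodendrocytes (0.65, SE 0.15). Ier3 was higher in OPCs (2.16, SE 0.44), and Ccn1, a secreted matrix protein, in astrocytes (1.67, SE 0.26). In astrocytes 1 of 9 such factors and 3 of 16 such response genes were called, beside a background of 20.6%. The counts were 1 of 7 and 1 of 12 in oligodendrocytes (12.4%) and 0 of 3 and 1 of 9 in OPCs (11.4%). In microglia and macrophages they were 0 of 3 and 0 of 9 (6.27%).

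Of 8 genes that follow neuronal activity with a delay, 7 were higher in repeat 2 in Neurons_1 and 1, Crem, which encodes a repressor of CREB sites, was lower, beside the background of 25.2% called and 13.2% higher. Their median log2 fold change there was 0.645 against 0.01 over all genes. The list was chosen with earlier results of these data known, so its count and median are descriptions only. In glia 0 of its tested genes were higher. Lower were 1 of 8 in astrocytes, 1 of 7 in oligodendrocytes and 1 of 7 in OPCs, beside backgrounds of 20.6%, 12.4% and 11.4% called. The medians in these 3 were -0.216, -0.312 and -0.577. Vgf, the precursor of secreted peptides, stood at 59.0 and 73.7 CPM in repeat 1 and 143 and 143 CPM in repeat 2, a log2 fold change of 1.08 (SE 0.09) with an adjusted p of 0.000160 in edgeR. Nptx2, a secreted synapse organizer, had 1.12 (SE 0.15), and Pcsk1, a convertase that cuts prohormones, 0.69 (SE 0.09). Scg2, a granule protein, was higher in repeat 2 in Neurons_1, at 0.76 (SE 0.09), and lower in astrocytes (-0.67, SE 0.12), oligodendrocytes (-0.69, SE 0.15) and OPCs (-0.79, SE 0.16), in each case past the threshold.

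The kinases, coactivators and factors upstream gave 3 higher and 1 lower of 21 in Neurons_1, a share not above the background of 25.2%. Those higher were Mef2d, Crtc1 and Crtc2, the last 2 being coactivators of CREB, and the lower was Mrtfb, a coactivator of the serum response factor. Heat shock genes, listed as a sign of cell stress, gave 1 higher (Hspd1) and 2 lower (Hspe1 and Hspa1b) of 10, a share near that background. Hspe1, a mitochondrial chaperone, was lower in repeat 2 in all 5 clusters, with log2 fold changes from -0.84 in Neurons_1 to -1.11 in microglia and macrophages. The part of stress, cell make-up or time to freezing in the repeat differences was not tested.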

How the data were processed

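Hypothalamic nuclei of 2 WT and 2 TRα1+m libraries were profiled by droplet sequencing. The authors aligned the reads with Cell Ranger 5.0.1 to mm10, including introns, removed low-count nuclei and predicted doublets, and clustered and named the nuclei in Seurat. The deposited matrices hold UMI counts per gene and barcode, and 56386 of 68190 barcodes carried an annotation. Groups came from the labels. Counts were summed per library and cluster, and given as CPM. Genotypes and repeats were compared with edgeR 4.0.16 (quasi-likelihood test, TMM, filterByExpr, Benjamini-Hochberg over all genes tested), tested first on simulated data. Tables were made with Python 3.11.15 and pandas 2.3.3. The smallest nucleus kept had 901 UMIs, so thinning to 900 UMIs left out none. Alternatives were DESeq2 1.42.0, no filter, thinning, the repeat as a block, added or left-out nuclei, and leaving out each library. The repeats were shared by the genotypes per the study's methods, and the repeat difference correlated between genotypes over genes (Pearson r 0.842 in Neurons_1, 0.757 in astrocytes, 0.620 in oligodendrocytes, 0.526 in OPCs, 0.355 in microglia and macrophages). The members and gene lists were chosen with earlier results of these data known. All 10 members and, from the other lists, genes with an adjusted p under 0.05 (at most 4 per list by adjusted p, otherwise the 2 most abundant) could be named, with Crem added after its values were seen. Nuclei with vascular genes carried at least 2 of 4 endothelial and 4 mural markers.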

Additional observations from a re-analysis of the deposited data

Results flagged for a closer look

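In the barcodes left out of the annotation, which enter no comparison above, Nr4a1 stood at 4.36 and 5.86 CPM in the 2 WT libraries and at 6.16 and 8.13 CPM in the 2 TRα1+m libraries, so that the lower mutant value lay above the higher WT value. It was the 1 of the 10 members for which this was so, and it has no test. The share of all genes with such an order was not computed. With 2 against 2 libraries no exact permutation p can be below 0.333, so the order alone is weak. Jun (18.6 and 19.3 CPM in WT, 15.2 and 14.8 CPM in TRα1+m) and Egr1 (9.08 and 10.996 CPM against 6.74 and 6.13 CPM) lay the other way in these barcodes.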

How the results depend on the processing

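The count of members called between genotypes was 0 in the main clusters, sub-clusters and comparisons with Neurons_1 under every alternative run. It was also 0 with the replicate block, alone or with DESeq2, the bias-adjusted fit or the Neurons_2 nuclei. DESeq2 without the block gave no adjusted p for 2 of the 7 members tested in oligodendrocytes, Arc and Nr4a1. With the block it gave none for these 2 either, so neither DESeq2 fit could call them. The block changed no call of a member, while it raised the calls over all genes, in oligodendrocytes from 13 to 550 and over the neuronal sub-clusters from 5 to 572, and leaving out each library gave 0 to 196 in oligodendrocytes. Of 389 alternative values of single members between genotypes, 28 changed sign without a call on either side, in 15 of the 27 pairs of member and cluster. Between repeats in Neurons_1 the count of 1 became 3 with no filter on low counts (Fosb, Nr4a1 and Npas4), 2 without nuclei carrying vascular genes (Fosb and Nr4a1) and 3 with Neurons_2 added (Fosb, Nr4a1 and Npas4), the last 2 alternatives being chosen after the data were seen. Leaving out each library gave 0 to 4 there, 0 without WT repeat 1 and 4 without TRα1+m repeat 2 (Fosb, Ier2, Nr4a1 and Npas4), and 0 to 1 in microglia and macrophages (1, Junb, without WT repeat 2, where the lone TRα1+m library of repeat 2 is assumed to vary like the others). The share of Neurons_1 nuclei with at least 3 members, 0.0112% at 900 UMIs, was 0.389% with no thinning, 0.0448% at 2000 UMIs and 0.120% for at least 2 members. The share depends on depth by construction. Of 50 mean levels, 7 moved by over 1 SD with thinning and 3 with a mean over nuclei. Under both, which are also shares of UMIs, 9 members had their highest mean in glia. Depth limits the glial results: oligodendrocytes had 7 of the 10 members past the filter, astrocytes 6, OPCs 3, and microglia and macrophages 1.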
